A study of Mus musculus with 6 samples.

Results

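The 10 genes described here belong to the antioxidant response controlled by NRF2, and were taken as the rows of the count matrix whose gene symbol is Nfe2l2, Keap1, Nqo1, Hmox1, Gclc, Gclm, Srxn1, Txnrd1, Gsr or G6pdx. All 10 were found among the 14831 genes listed, and all 10 had enough counts to be tested. The counts come from RNA sequencing of immortalized mouse pancreatic fibroblasts of mixed strain, which asked how combined loss of the Hedgehog transcription factors GLI2 and GLI3 changes the fibroblast transcriptome. There are 6 libraries in 2 groups, 3 labelled WT and 3 labelled Gli2-/-;Gli3-/- (labelled KO below). Cells were grown to confluence in separate wells, in DMEM with calf serum and antibiotics, and no other treatment is given. The study describes its mouse lines as outgrowths from adult pancreas that were infected after immortalization with a GFP adenovirus, together with a dsRed lentivirus in control lines or a Cre adenovirus in knockout lines, and then sorted. Sorted cells were screened for recombination by qPCR and western blot, and the study reports Gli deletion in its knockout lines by these methods. It also reports that Gli2/Gli3 knockout lines did not respond to Hedgehog stimulation. Which line or clone was sequenced is not given in the sources used here, and p values measure the spread between these wells alone, which may be technical. In such bulk samples fewer cells of a type and less RNA per cell cannot be told apart.

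Totals were 31728420 to 33905521 counts in the WT-labelled libraries and 32781730 to 41035931 in the KO-labelled libraries. The genes named by the genotype were both higher in the KO-labelled libraries, which goes against the label. It also stands apart from the deletion that the study reports for its knockout lines. Gli2 had 809, 944 and 868 counts against 1932, 2316 and 1926 (log2 fold change 1.05), and Gli3 had 392, 416 and 398 against 1434, 1637 and 1404 (1.71), with no overlap for either gene. Counts over a whole gene do not show whether a floxed part of it was removed. Every direction below is therefore one between labelled groups. Among fibroblast markers, Col1a1 averaged 15982 and 16113 CPM (counts per 1000000 counts of the library) in the WT- and KO-labelled libraries. Vim averaged 4285 and 3912 CPM, while Thy1 had 19 counts or fewer in every library and Pdpn is not in the table. Levels of single genes in CPM carry a scaling factor per library (TMM). The sums of marker lists in this paragraph and the levels of Cela1 do not. The 9 of 10 fibroblast markers in the table summed to 56730 to 57420 CPM in the WT-labelled libraries and 48020 to 50000 CPM in the KO-labelled ones. Of the 8 tested, 4 passed both limits used below, all lower in the KO-labelled libraries. These are Dcn (2643 ± 117 against 905 ± 6.95 CPM, log2 fold change -1.55), Col3a1 (-0.94), Pdgfra (-0.90) and Pdgfrb (-0.66). The sum, made up mostly of Col1a1, Col1a2 and Fn1, was lower there too, without overlap. Of 8 macrophage markers 4 are in the table, with Ptprc and Adgre1 not among them, and their summed level was 54.9 to 60.1 CPM in the WT-labelled libraries and 53.3 to 54.5 CPM in the KO-labelled libraries. Of 8 epithelial markers 5 are in the table and their sum moved with the groups, from 14.3 to 15.4 CPM in the WT-labelled libraries and from 32.3 to 33.9 CPM in the KO-labelled libraries. Krt7 makes up most of that difference, and Epcam, Krt18 and Krt19 are not in the table. Of the others tested, Cdh1 (log2 fold change 1.08) and Muc1 (0.57) were also higher in the KO-labelled libraries, and Sox9 was lower (-0.50). Of 6 acinar markers only Cela1 is in the table, at 7.28 to 8.73 and 13.7 to 15.6 CPM, and of 6 endothelial markers none. The part of these differences in the results below was not tested.

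NRF2, encoded by Nfe2l2, is a transcription factor that is kept low in unstressed cells because KEAP1 holds it for ubiquitination by a CUL3 ligase. Oxidants and electrophiles modify KEAP1, NRF2 then accumulates, pairs with a small MAF protein and binds antioxidant response elements near genes for glutathione and thioredoxin chemistry, NADPH supply, quinone reduction and haem breakdown. Its activity is set largely at the protein level, which RNA counts do not measure.

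The short core of that element was looked for around the transcription start sites of the members, because these genes are known as a group through it. The letters TGACNNNGC, where N is any base, were searched on both strands in RefSeq promoter windows of GRCm38.p6, each from 250 bases before to 50 bases after a start site. Windows were held for 7 of the 10 members, and 5 of these 7 had the letters in at least 1 window, against 13.99% of the 27025 genes with a window. The members were chosen as known targets of NRF2, and no test was made of this share. Each match is given with 10 bases on either side, 5′ to 3′ on the strand that carries the core, with the core in capitals.

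Nfe2l2 (chr2:75704885-75704913): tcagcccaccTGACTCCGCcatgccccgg
Gclm (chr3:122245413-122245441): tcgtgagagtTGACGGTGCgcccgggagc
Srxn1 (chr2:152105542-152105570): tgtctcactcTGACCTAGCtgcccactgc
Txnrd1 (chr10:82859104-82859132): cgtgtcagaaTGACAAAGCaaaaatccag
G6pdx (chrX:74428919-74428947): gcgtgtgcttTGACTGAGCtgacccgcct

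The Nfe2l2 core lies on the strand of the gene, at position -240 from the start site, and the others lie on the opposite strand. The Srxn1 match is the only one of the 5 downstream of the start site, and that of Txnrd1 is in 1 of its 3 windows. None of the 5 matches overlaps the AP-1 letters TGACTCA. The windows of Keap1 and Nqo1 held no match. As the values below show, the genes with these letters include members that were higher, lower and not separable between the groups. A match is a description of the letters and not evidence of binding.

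Across the 10 members, Nqo1 was the single gene that passed both limits used for a call, a Benjamini-Hochberg adjusted p below 0.05 over 14289 genes in the quasi-likelihood test of edgeR and a change of at least 1.5-fold. Over all genes tested, 17.7% passed both limits, 11.6% as higher and 6.1% as lower in the KO-labelled libraries. At an adjusted p under 0.05 alone, 7 of the 10 members differed, 3 higher (Nfe2l2, Keap1, Nqo1) and 4 lower (Hmox1, Gclc, Srxn1, G6pdx), where the share of all genes was 58.7%, with 29.9% higher and 28.8% lower. The groups did not overlap for those same 7 genes, as for 64.2% of all genes tested. These shares are near the background, and the members did not move one way. Their median log2 fold change was 0.03, against 0.00 for all genes, and their median size of change was 0.22, the same as the 0.22 of all genes. The 10 genes summed to 739 to 775 CPM in the WT-labelled libraries and 744 to 784 CPM in the KO-labelled libraries, ranges that overlap.

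**Figure D1:**
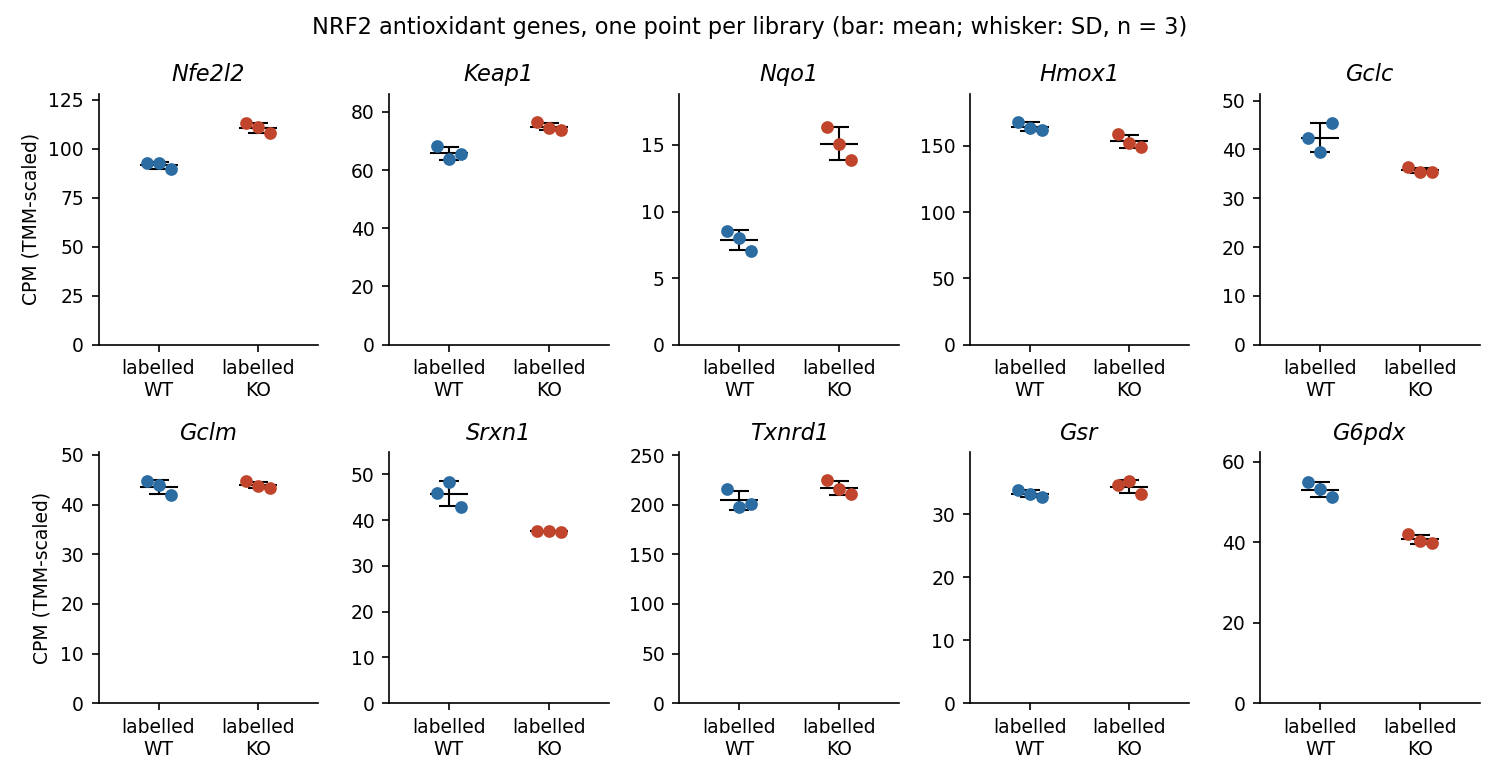
Level of each of the 10 members in CPM scaled by TMM (vertical axes, each from 0) in the 3 libraries labelled WT (blue) and the 3 labelled KO (red), with the mean and SD. Nqo1 averages 7.87 CPM in one group and 15.1 CPM in the other, G6pdx, Srxn1 and Gclc are lower in the KO-labelled libraries, and Gclm, Gsr and Txnrd1 overlap between the groups.

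The regulators came first in the order of the pathway. Nfe2l2 (chromosome 2, bases 75675513 to 75704641, GENCODE M21 on GRCm38, as for all gene positions) had 2904, 3100 and 2858 counts in the WT-labelled libraries and 3996, 4629 and 3555 in the KO-labelled libraries. Scaled by TMM, this is 91.6 ± 1.78 and 111 ± 2.62 CPM (SD, n = 3 each). Each library labelled KO was above each library labelled WT. The log2 fold change was 0.27 (standard error, SE, 0.03, edgeR adjusted p = 1.27e-05), a 1.21-fold difference with a 95% confidence interval from 1.15 to 1.27, which is under the 1.5-fold limit.

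Keap1 (chromosome 9, bases 21229730 to 21239361), the gene for the sensor and adaptor that targets NRF2 for degradation, had 2136, 2136 and 2094 counts in the WT-labelled libraries and 2707, 3108 and 2438 in the KO-labelled libraries. The scaled levels were 65.8 ± 2.20 and 75.0 ± 1.34 CPM, again with no overlap between the groups. Its log2 fold change was 0.19 (SE 0.04, edgeR adjusted p = 6.00e-04). Activator and inhibitor were thus both higher in the KO-labelled libraries, by 1.21- and 1.14-fold. Their ratio within a library, which no scaling between libraries can change, was 0.735, 0.689 and 0.733 Keap1 counts per Nfe2l2 count in the WT-labelled libraries and 0.677, 0.671 and 0.686 in the KO-labelled libraries. The lowest of the former, 0.689, and the highest of the latter, 0.686, nearly met. A two-sided exact permutation test gave p = 0.1, the smallest value that 3 libraries against 3 allow, and 0.1 after adjustment over the 3 ratios computed in all, which were chosen after the values were seen. Exons of Keap1 overlap the antisense gene Gm16754 over 510 bases, and whether reads were counted by strand is not given in the sources used here.

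Nqo1 (chromosome 8, bases 107388225 to 107403206), which encodes a quinone reductase and is widely used as a readout of NRF2, had the largest change of the 10. It had 267, 269 and 225 counts in the WT-labelled libraries and 580, 629 and 457 in the KO-labelled libraries. In scaled levels this is 8.52, 8.03 and 7.05 CPM against 16.4, 15.1 and 13.8 CPM. The lowest library labelled KO was thus well above the highest labelled WT. Nqo1 rose by 0.94 on the log2 scale (SE 0.09, edgeR adjusted p = 9.94e-07), or 1.92-fold with a 95% confidence interval from 1.69 to 2.19, and 89.1% of all genes tested changed less. It was also the least abundant member in the WT-labelled libraries. At its mean count over all 6 libraries, counting alone gives a variation of about 4.97%. The libraries of a group varied by 9.53% (labelled WT) and 8.39% (labelled KO), and counting variation was not computed for each group.

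Hmox1 (chromosome 8, bases 75093621 to 75100589), is the gene for the inducible haem oxygenase, which breaks down haem. Its counts were 5273, 5468 and 5162 in the WT-labelled libraries and 5625, 6345 and 4919 in the KO-labelled libraries, or 164 ± 3.43 and 153 ± 5.02 CPM. The highest library labelled KO, at 158.9 CPM, lay just under the lowest labelled WT, at 161.7 CPM. The log2 fold change was -0.10 (SE 0.03, edgeR adjusted p = 0.0200). This small difference depended on the scaling and on single libraries: the adjusted p was 0.301 with upper-quartile scaling, 0.116 with total counts, 0.0585 without WT-labelled library 1, 0.0745 without KO-labelled library 2 and 0.0699 without KO-labelled library 3.

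**Figure D2:**
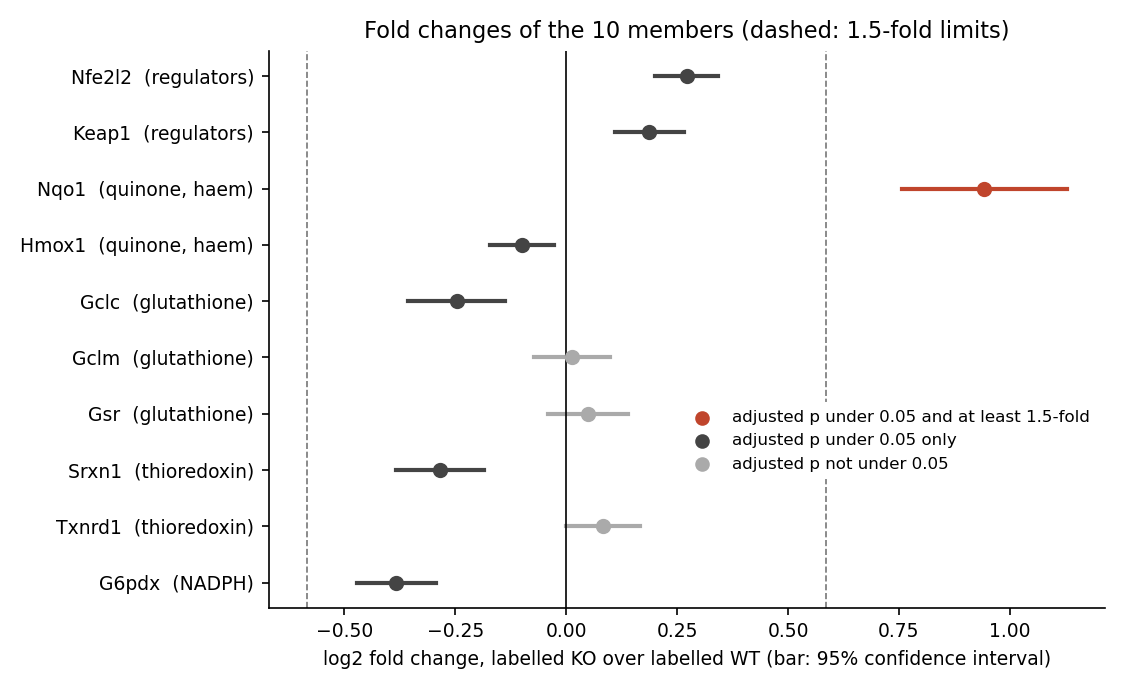
Log2 fold change of each member, labelled KO over labelled WT (horizontal axis), with its 95% confidence interval from edgeR, ordered by role. Nqo1 lies alone beyond the dashed 1.5-fold limits, 3 members are higher and 4 lower at an adjusted p under 0.05, and Gclm, Gsr and Txnrd1 lie near 0.

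Glutathione is made in a first, rate-limiting step by glutamate-cysteine ligase, whose catalytic subunit is encoded by Gclc and whose modifier subunit by Gclm. Gclc (chromosome 9, bases 77754535 to 77794485) had 1328, 1320 and 1450 counts in the WT-labelled libraries and 1287, 1478 and 1166 in the KO-labelled libraries. The scaled levels were 42.4, 39.4 and 45.4 CPM against 36.3, 35.5 and 35.3 CPM. All 3 libraries labelled KO were below the lowest labelled WT, by about as much as the SD of 3.01 CPM among the latter. Its log2 fold change was -0.25 (SE 0.05, edgeR adjusted p = 9.73e-04), or 0.843-fold with a 95% confidence interval from 0.781 to 0.909.

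Gclm (chromosome 3, bases 122245557 to 122270732) had 1405, 1468 and 1339 counts in the WT-labelled libraries and 1581, 1822 and 1433 in the KO-labelled libraries, which is 43.5 ± 1.47 and 43.9 ± 0.645 CPM. No difference was detectable, with a log2 fold change of 0.01 (SE 0.04, edgeR adjusted p = 0.796) and a fold between 0.951 and 1.07 at 95% confidence. Part of its exons is shared with 2 annotated genes, Gm6061 on the same strand and Gm17494 on the other. The ratio of Gclc to Gclm counts was 0.945, 0.899 and 1.08 in the WT-labelled libraries and 0.814, 0.811 and 0.814 in the KO-labelled libraries. The libraries labelled KO thus lay close together and below all the WT-labelled ones, with a mean 0.833 times as high (p = 0.1 in a two-sided exact permutation test, the smallest possible, and 0.1 adjusted over 3 ratios). The WT-labelled library with 1.08 was high, and without it, left out after the values were seen, the KO mean was 0.882 times as high.

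Gsr (chromosome 8, bases 33652523 to 33698163) encodes glutathione reductase, which returns oxidized glutathione to its reduced form with NADPH. It had 1060, 1114 and 1047 counts in the WT-labelled libraries and 1226, 1474 and 1097 in the KO-labelled libraries, or 33.3 ± 0.514 and 34.4 ± 1.09 CPM. The groups overlapped, and the log2 fold change was 0.05 (SE 0.04, edgeR adjusted p = 0.333). The 95% confidence interval of its fold, from 0.972 to 1.10, bounds the size of any difference. With upper-quartile scaling the adjusted p was 0.0464 at a log2 fold change of 0.11.

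The thioredoxin branch is covered by Txnrd1 and Srxn1. Txnrd1 (chromosome 10, bases 82833951 to 82897712), the cytosolic thioredoxin reductase, had 6760, 6614 and 6418 counts in the WT-labelled libraries and 7955, 8989 and 6950 in the KO-labelled libraries. Scaled, the levels were 216, 197 and 201 CPM against 225, 216 and 211 CPM, and 1 library labelled WT lay among the KO-labelled libraries. The log2 fold change of 0.08 did not pass (SE 0.04, edgeR adjusted p = 0.0773). It passed with upper-quartile scaling (0.14, adjusted p = 0.00781), with total counts (0.12, adjusted p = 0.0189), without WT-labelled library 1 (0.12, adjusted p = 0.0108) and without KO-labelled library 3 (0.11, adjusted p = 0.0333).

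Srxn1 (chromosome 2, bases 152105516 to 152111376) encodes sulfiredoxin, which repairs over-oxidized peroxiredoxins. It had 1438, 1620 and 1370 counts in the WT-labelled libraries and 1329, 1571 and 1237 in the KO-labelled libraries, or 45.9, 48.4 and 42.9 CPM against 37.5, 37.7 and 37.5 CPM. The libraries labelled KO were nearly identical and all below the WT-labelled libraries. Its log2 fold change was -0.28 (SE 0.05, edgeR adjusted p = 1.60e-04). Set against each other, there were 0.213, 0.245 and 0.214 Srxn1 counts per Txnrd1 count in the WT-labelled libraries and 0.167, 0.175 and 0.178 in the KO-labelled libraries, without overlap (p = 0.1 in the same exact permutation test, 0.1 adjusted over 3 ratios).

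G6pdx (chromosome X, bases 74409483 to 74429194) encodes glucose-6-phosphate dehydrogenase, the entry to the oxidative pentose phosphate pathway and a main source of NADPH. It had 1720, 1777 and 1631 counts in the WT-labelled libraries and 1486, 1680 and 1310 in the KO-labelled libraries, or 53.0 ± 1.90 and 40.7 ± 1.18 CPM. Among the members this was the largest difference downward, with no overlap, at a log2 fold change of -0.38 (SE 0.04, edgeR adjusted p = 4.43e-06) or 0.767-fold. Its exons overlap those of Ikbkg on the opposite strand over 418 bases. Ikbkg, an NF-kB pathway gene, was itself lower in the KO-labelled libraries, with a log2 fold change of -0.31 (edgeR adjusted p = 1.53e-06), and the part of shared reads in either value was not tested. G6pdx also has a related autosomal copy in the mouse genome, between which the counting could have split reads.

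Levels of different genes were compared per length, as CPM per kb of annotated exon. Hmox1 was by far the most abundant member in both groups, at 93.9 ± 1.96 CPM per kb in the WT-labelled libraries and 87.6 ± 2.87 in the KO-labelled libraries, a level above 97.2% of all genes in either group. Txnrd1 (28.9 ± 1.36) and Nfe2l2 (24.1 ± 0.469) followed in the WT-labelled libraries, where their ranges did not meet. In the KO-labelled libraries they were 30.6 ± 1.01 and 29.1 ± 0.691 CPM per kb, and their ranges overlapped. G6pdx and Srxn1 came next in the WT-labelled libraries, at 17.2 ± 0.616 and 16.2 ± 0.968 CPM per kb with overlapping ranges, ahead of Keap1 at 14.03 ± 0.469. In the KO-labelled libraries Keap1 came first of these, at 16.0 ± 0.285 CPM per kb above Srxn1 at 13.3 ± 0.0416 and G6pdx at 13.2 ± 0.383. The ranges of Srxn1 and G6pdx overlapped there too.

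Nqo1 was the lowest member in the WT-labelled libraries, at 5.07 ± 0.483 CPM per kb, below Gclm at 6.92 ± 0.233. In the KO-labelled libraries it stood above Gclm (6.98 ± 0.103) and level with Gclc, at 9.73 ± 0.817 and 9.48 ± 0.147 CPM per kb with overlapping ranges. Gsr kept its place as the seventh of the 10 by its mean, at 12.1 ± 0.187 and 12.5 ± 0.394 CPM per kb. In the WT-labelled libraries its range overlapped that of Gclc. The length used was that of all annotated exons of a gene, merged where they overlap, so that a gene whose long isoform is little used is set too low.

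**Figure D3:**
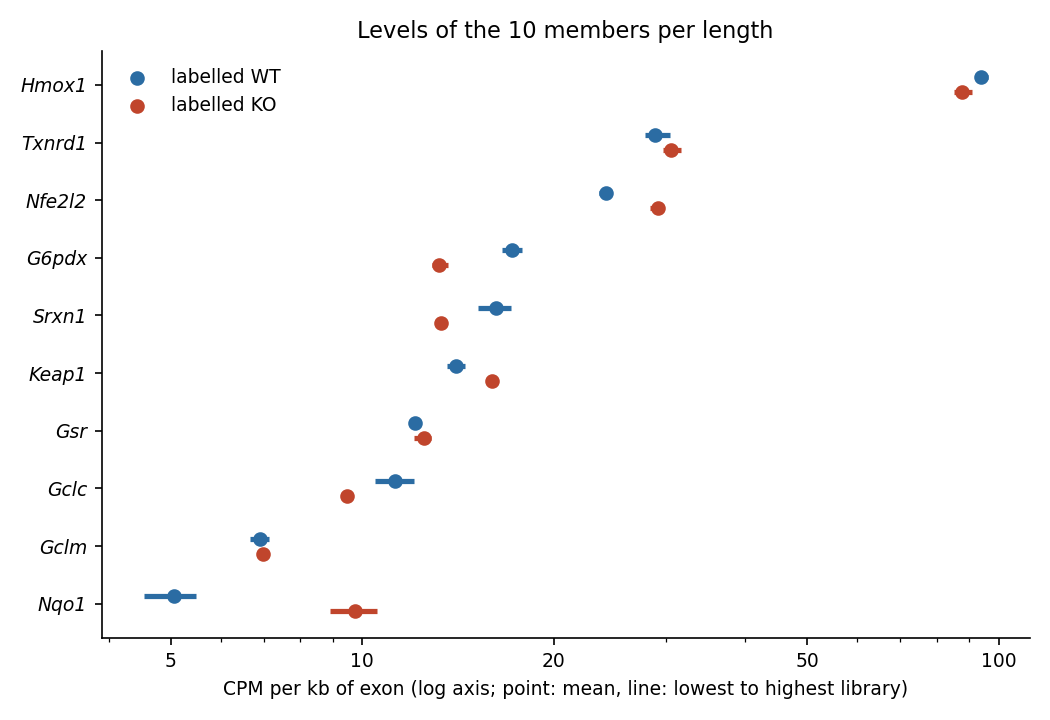
Level of each member in CPM per kb of exon (log axis), with the mean (point) and the lowest to highest library (line) of each group of 3. Hmox1 stands apart at the top in both groups, and Nqo1 moves from below Gclm in the WT-labelled libraries to the level of Gclc in the KO-labelled libraries.

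The rest of the pathway was read from 8 lists of genes by role. Of 91 listed genes 80 were tested, and 11 passed both limits, 9 higher and 2 lower in the KO-labelled libraries, where 17.7% of all genes did, 11.6% higher and 6.1% lower. Nfe2l3, Ggct and Duox1, 3 of those 9, passed the filter on low counts only through the KO-labelled libraries and had to be higher there. Of the 77 genes that passed it in both groups 8 were past both limits, 6 higher and 2 lower, or 10.4% against 14.3% of all such genes. At an adjusted p under 0.05 alone 54 of the 80 differed, 17 higher and 37 lower, against 58.7% of all genes, 29.9% higher and 28.8% lower. The median log2 fold change was -0.09, against 0.00 for all genes. Among all called genes 65.6% were higher. Slc3a2, Bach1 and the dismutase and catalase genes named below were, like others marked so, picked after their values were seen.

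Among 12 partners and regulators of NRF2, Nfe2l3, which encodes a relative of NRF2, had 1, 0 and 0 counts in the WT-labelled libraries and 43, 35 and 35 in the KO-labelled libraries. It was at least 11.15-fold higher against a floor of 3 counts per library. This is a description, since the gene was tested only because of its counts in the latter group. No other gene of this list passed both limits. At an adjusted p alone, 2 of the 12 were higher, Nfe2l3 and Bach2, where 29.9% of all genes were. Bach2, named after its values were seen, was 1.45-fold higher (edgeR adjusted p = 0.00465). Lower were 7 of the 12, where 28.8% of all genes were. These include Sqstm1, for the autophagy adaptor p62 that binds KEAP1 (732 ± 1.62 against 526 ± 13.0 CPM, log2 fold change -0.48), Mafk, for a small MAF partner of NRF2 (73.5 ± 1.83 against 51.7 ± 0.809 CPM, -0.51), and Cul3, for the ligase scaffold (-0.17), all named after their values were seen. Bach1, for the repressor that competes at antioxidant response elements, had a log2 fold change of -0.06 (edgeR adjusted p = 0.209).

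Of 15 glutathione genes tested, 3 passed both limits, near the 17.7% of all genes, and these 3 were higher in the KO-labelled libraries, as most called genes were. Slc7a11, for the transporter that imports cystine for glutathione synthesis, had 85, 58 and 62 counts in the WT-labelled libraries and 217, 221 and 211 in the KO-labelled libraries. That is a log2 fold change of 1.48 (SE 0.15, edgeR adjusted p = 2.63e-06), with no overlap between the groups. Its partner chain Slc3a2 was 1.20-fold higher (edgeR adjusted p = 2.98e-05). Ggct, for a gamma-glutamyl cyclotransferase, had 4, 10 and 18 counts against 42, 56 and 49, and entered the test only through the higher group. Gpx1, for the cytosolic glutathione peroxidase, rose from 80.5 ± 5.72 to 122 ± 5.204 CPM, or 1.52-fold, and was under the 1.5-fold limit without WT-labelled library 3 or without KO-labelled library 2. Mgst3, named after its values were seen, lay just short of the 1.5-fold limit on the lower side. Its log2 fold change was -0.583 (edgeR adjusted p = 2.31e-05), and it passed both limits in 5 of 14 alternative settings. At an adjusted p alone, 6 of the 15 were higher and 3 lower, against 29.9% and 28.8% of all genes.

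None of 15 thioredoxin, peroxiredoxin and related genes passed both limits in edgeR's test. At an adjusted p under 0.05 alone 7 differed, 1 higher and 6 lower, against 58.7% of all genes. Txn1, the substrate of Txnrd1, was lower with a log2 fold change of -0.20 (edgeR adjusted p = 0.00118), and Prdx1, for a peroxiredoxin that sulfiredoxin repairs, had -0.03 (edgeR adjusted p = 0.406). Of 9 genes of NADPH supply none passed both limits either, with 3 higher and 4 lower at an adjusted p alone (29.9% and 28.8% of all genes). Pgd, the dehydrogenase downstream of G6pdx in the pentose phosphate pathway, was lower by a similar amount, at 152 ± 6.65 against 119 ± 4.42 CPM and a log2 fold change of -0.36 (edgeR adjusted p = 5.90e-06).

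Of 8 genes of haem breakdown and iron handling none passed both limits, and the 6 that passed an adjusted p alone were all lower in the KO-labelled libraries, against 28.8% of all genes that were lower. No test of the list was made. Among them the ferritin heavy chain gene Fth1, named after its values were seen, had 1981 ± 29.4 against 1566 ± 27.8 CPM, a log2 fold change of -0.34 (edgeR adjusted p = 3.09e-07). Fth1, Txn1, Prdx1 and Gpx1 have close relatives or pseudogenes whose reads the counting could have split. Of 14 detoxification genes tested, 5 passed both limits, 3 higher and 2 lower, against 17.7% of all genes, 11.6% higher and 6.1% lower. Cbr3, a carbonyl reductase gene, had 65, 76 and 53 counts in the WT-labelled libraries and 153, 167 and 133 in the KO-labelled libraries, a log2 fold change of 1.04 (SE 0.13, edgeR adjusted p = 1.95e-05). Osgin1, an oxidative stress induced growth inhibitor gene, rose from 17.5 ± 1.05 to 29.2 ± 1.84 CPM, or 1.67-fold (edgeR adjusted p = 4.28e-07).

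The efflux transporter gene Abcc3 was 1.55-fold higher, and was under the limit without WT-labelled library 2 or without KO-labelled library 2. The aldehyde dehydrogenase gene Aldh3a1 fell by 1.20 on the log2 scale, from 25.4 ± 2.22 to 11.0 ± 0.305 CPM (edgeR adjusted p = 1.42e-08), and the prostaglandin reductase gene Ptgr1 fell by 0.72, from 48.1 ± 1.10 to 29.2 ± 1.01 CPM (edgeR adjusted p = 1.47e-08). At an adjusted p alone 9 of the 14 were lower and 3 higher, against 28.8% and 29.9% of all genes. Of the 4 dismutase and catalase genes none passed both limits. At an adjusted p alone Sod2 and Sod3 were lower (log2 fold change -0.17 and -0.33), where 28.8% of all genes were. Sod1 and Cat had -0.03 and -0.01.

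Of 11 NADPH oxidase genes, whose products make superoxide or hydrogen peroxide, 3 were tested, of which Duox1 only through its counts in the KO-labelled libraries. Nox4 rose. It had 139, 129 and 142 counts in the WT-labelled libraries and 223, 293 and 243 in the KO-labelled libraries, a log2 fold change of 0.70 (SE 0.10, edgeR adjusted p = 5.37e-05). Duox1 had 8, 4 and 7 counts against 22, 20 and 15. Noxo1, the remaining gene tested and named after its values were seen, had a log2 fold change of -0.08 (edgeR adjusted p = 0.533). So 2 of the 3 passed both limits, where 17.7% of all genes did. Nqo1, Slc7a11, Cbr3 and Osgin1 thus rose, while Gclc, Srxn1, G6pdx, Aldh3a1 and Ptgr1 were lower in the KO-labelled libraries. All of these are known in the field as NRF2 targets, but this selection was made after the values were seen. It does not give the balance of the pathway. Of the 80 genes tested over all the pathway lists, 17 were higher and 37 lower at an adjusted p alone. Among the members, Gclm, Gsr and Txnrd1 did not pass an adjusted p alone in the main test.

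**Figure D4:**
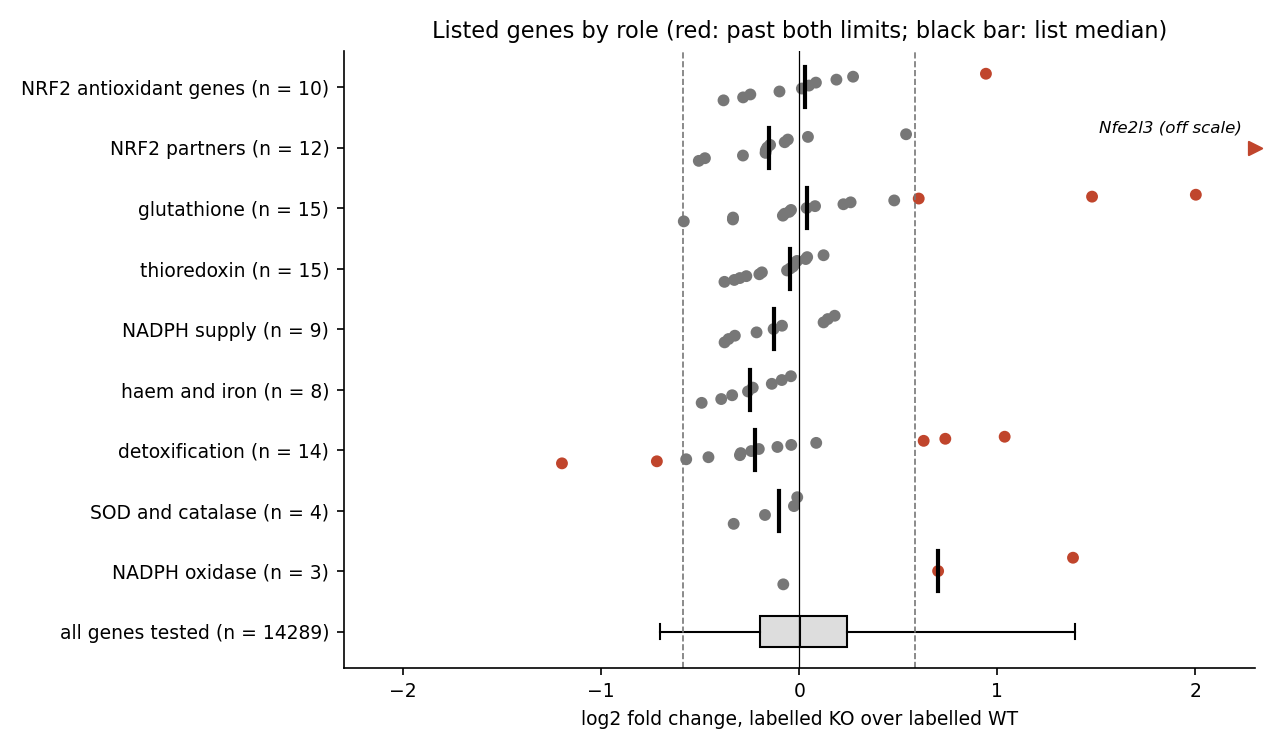
Log2 fold change, labelled KO over labelled WT (horizontal axis), of the members and of the tested genes of 8 pathway lists, 1 point per gene, red where both limits were passed, with the list median as a black bar and the dashed lines at 1.5-fold. The box at the bottom gives the quartiles of all 14289 genes, with whiskers from the 5th to the 95th percentile, and Nfe2l3 lies off the scale. Nfe2l3, Ggct and Duox1 are drawn although they passed the filter only through the KO-labelled libraries. The list medians run from -0.25 for haem and iron genes to 0.04 for glutathione genes, leaving aside the 3 NADPH oxidase genes tested.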

How the data were processed

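Polyadenylated RNA of 6 wells was sequenced. The authors deposited unnormalized read counts per gene and a table of log2 CPM from voom (limma). The submitters' processing notes name STAR 2.7.2b, featureCounts and GRCm38.p6. Whether counting used strand is not given in the sources used here. The main test was that of edgeR 4.0.16 under R 4.3.3 on the counts (TMM factors, filterByExpr, quasi-likelihood F test, labelled KO against labelled WT), which kept 14289 genes. A gene was called when its p, adjusted by Benjamini-Hochberg, was below 0.05 and its fold change 1.5 or more either way. Standard errors were taken from the fold change and its F statistic. The members, lists and ratios were chosen with earlier results of these data known. Genes named are the 10 members, Gli2 and Gli3, Slc7a11, Txn1, Pgd and Prdx1, up to 3 called genes in each direction per list, and others named as chosen afterwards or given beside a member they overlap or pair with. The tests were checked on simulated data. Pairs of libraries of a group differed by more than sampling noise (chi-square per degree of freedom 2.47 to 7.53). The alternatives were other scalings, filters and fold limits, DESeq2 1.42.0, limma 3.58.1 on counts and on the deposited log2 values, and leaving out each library. Members had 225 to 8989 counts per library, and a floor of 3 counts was 0.0731 to 0.0946 CPM of the library totals. A floor covers counting error only.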

Additional observations from a re-analysis of the deposited data

How the results depend on the processing

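Over 14 alternatives for each member, 128 of 140 log2 fold changes kept their direction and their side of an adjusted p of 0.05. The exceptions are Hmox1, which lost it in 5, Txnrd1 and Gsr, which gained it in 4 and 1 (values in the text above), and Gclm, which was not separable in any and lay between -0.0156 and 0.0327 with a library left out, below 0 without the WT-labelled library 3 (adjusted p = 0.785) and without the KO-labelled library 1 (adjusted p = 0.957). Nqo1 stayed between 0.87 and 1.00. Upper-quartile scaling shifted the median of all genes from 0.00 to 0.06 on the log2 scale, and the share of higher among called genes from 65.6% to 70.7%. The fold limit moved the counts most. Without it 8391 genes, 7 members and 54 pathway genes passed, and with a 2-fold limit 1456 genes, 0 members and 6 pathway genes did. With DESeq2, 2342 genes and 1 member passed both limits. Leaving out a library gave 2501 to 2618 genes, 1 member and 10 to 12 pathway genes. Requiring 10 counts in every library removed Nfe2l3, Ggct and Duox1 from the test. Whether Hmox1, Gsr and Txnrd1 differ thus depends on the setting, at fold changes of 0.933, 1.03 and 1.06. The replicates have no numbers in the labels that would pair them across groups.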
